A study of Mus musculus with 4 samples.

Results

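The calcineurin, NFAT and Rcan genes described here are 10 of the 52636 mouse genes counted: Rcan1, Rcan2 and Rcan3, Nfatc1, Nfatc2, Nfatc3 and Nfatc4, and Ppp3ca, Ppp3cb and Ppp3r1. They were taken by symbol from the gene table, where each symbol matched 1 gene, and they were chosen by their UMI levels in young against aged libraries. Differences with age in these 10 genes are therefore given as values with their standard errors and with no test, whereas their differences between cell types were tested. The choice compared ages and not cell types. A difference between cell types that rests on the aged levels is still not independent of it. The cells came from kidney glomeruli, the filtering units, of young and aged untreated mice (young, n = 2 libraries; aged, n = 2 libraries). Animals had been perfused with magnetic beads that lodge in glomerular capillaries, and glomeruli were then pulled down on a magnet, digested and run on a droplet 3′ platform. How old the mice were in months, their sex and strain, and how many were pooled are not given in the sources used here. Nothing in the labels says that the libraries came from separate animals, so that p-values measure only the spread between these libraries.

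The labels call the cells whole tissue, and cells were assigned to classes from marker genes. After filtering, 3929 podocytes, 13974 endothelial cells, 1405 mesangial cells and 118 parietal epithelial cells entered the sums, with 21 to 39 parietal cells a library. Deposited totals ran from 18457791 to 42046542 unique molecular identifiers (UMIs) a library. Young replicate 2 stood apart, with 66.4% of its kept cells left without a class against 5.29 to 6.95% in the other libraries, mostly because 57.2% fell in clusters that mixed the markers of unrelated cell types. Libraries shared at most 0.346% of their cell barcodes.

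Calcineurin is a phosphatase switched on by calcium and calmodulin. It pairs a catalytic A subunit, encoded by Ppp3ca or Ppp3cb in most tissues, with a regulatory B subunit, encoded by Ppp3r1. Active calcineurin strips phosphates from the NFAT transcription factors Nfatc1 to Nfatc4, which then move into the nucleus, and kinases such as Dyrk1a and Gsk3b reverse that step. Rcan proteins bind calcineurin and restrain it, and Rcan1 is itself a gene that NFAT induces, which makes it a feedback brake. In podocytes, calcineurin also acts outside the nucleus on synaptopodin, an actin-associated protein of the foot processes, and calcineurin inhibitors are used to treat protein-losing glomerular disease.

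Rcan1 lies on chromosome 16 of GRCm38 (chr16:92391953-92470867, minus strand) and has 5 coding transcripts with 5 different starts in GENCODE. A start inside the gene gives the shorter transcript that is known as the one induced by calcineurin and NFAT. Of the 5 transcripts, 4 end within 100 bases of the gene's 3′ end, so counts read from the 3′ end did not separate the starts. The 3 windows shown come from RefSeq (GRCm38.p6). They were chosen because they hold the inner and the outer of the Rcan1 starts that had a window, and the start of Rcan2 with matches. Each runs from 250 bases before to 50 bases after a start, 5′ to 3′ on the gene's strand, and capitals mark GGAAA, the core letters of NFAT sites, on either strand (TTTCC is its reverse complement).
Rcan1 inner start, chr16:92400029-92400328, minus strand: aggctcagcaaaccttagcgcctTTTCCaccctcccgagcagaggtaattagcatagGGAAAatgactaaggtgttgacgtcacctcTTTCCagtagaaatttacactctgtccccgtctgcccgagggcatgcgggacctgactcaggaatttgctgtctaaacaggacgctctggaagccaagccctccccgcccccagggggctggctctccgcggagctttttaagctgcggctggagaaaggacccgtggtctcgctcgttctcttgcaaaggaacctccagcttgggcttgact
Rcan1 outer start, chr16:92466120-92466419, minus strand: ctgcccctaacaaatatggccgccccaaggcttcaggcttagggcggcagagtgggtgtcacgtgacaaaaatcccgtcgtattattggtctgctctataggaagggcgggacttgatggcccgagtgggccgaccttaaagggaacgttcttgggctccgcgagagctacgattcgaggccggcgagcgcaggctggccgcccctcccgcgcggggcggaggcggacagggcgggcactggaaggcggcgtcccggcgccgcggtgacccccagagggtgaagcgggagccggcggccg
Rcan2, chr17:43801102-43801401, plus strand: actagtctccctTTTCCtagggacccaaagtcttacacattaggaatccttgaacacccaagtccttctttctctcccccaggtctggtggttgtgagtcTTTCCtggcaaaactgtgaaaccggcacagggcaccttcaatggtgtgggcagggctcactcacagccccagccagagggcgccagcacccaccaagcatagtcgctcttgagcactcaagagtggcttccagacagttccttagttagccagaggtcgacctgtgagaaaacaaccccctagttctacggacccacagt
The inner Rcan1 window held 3 matches, and 9.42% of all 32851 mouse promoter windows of this length held as many or more. The outer Rcan1 window held 0. It lies inside the gene's GENCODE span, so a start at the upstream edge of the gene was not searched. The Rcan2 window held 2, and 26.7% of all windows held as many or more. The other Rcan2 windows, at 43801601 and 43952749 on chromosome 17, held 0. Such a short core occurs in 61.3% of all windows at least once, with a median of 1 match. Of the windows of the other genes, that of Ppp3cb held 4 matches (2.65% of all windows held as many or more), and that of Nfatc4 and 1 of 2 of Nfatc2 held 3. Windows were found for 8 of the 10 genes, of which Ppp3ca had no entry and Nfatc1 was not searched. Several of the genes overlap a neighbour, Rcan1 with Gm46555 on the opposite strand and Ppp3r1 with Wdr92 on its own strand, and how the authors' counting split such reads was not tested.

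The first question was in which glomerular cells each gene is read. UMIs were summed per class and library and expressed as CPM, the UMIs of a gene scaled to the same depth of counts-per-million for every sum, with 1 set of edgeR scaling factors over the 16 sums. All 6 pairs of classes were tested with the library as a block (edgeR quasi-likelihood test, Benjamini-Hochberg adjusted over 12979 genes). Of 60 combinations of gene and pair, 36 passed an adjusted p of 0.05. This count has to be read against all genes, of which 75% passed between podocytes and endothelial cells, 69% between podocytes and mesangial cells, and 55.6% between endothelial and mesangial cells. In pairs with the scarce parietal cells, 34.4% passed against podocytes, 38.2% against endothelial cells and 32.4% against mesangial cells. The 10 genes gave 6, 7 and 8 calls in the first 3 of these pairs and 5 in each pair with parietal cells.

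Rcan1, the NFAT-induced brake, was read mainly in podocytes and endothelial cells. Podocyte sums held 61.9 and 70.8 CPM in the young and 333 and 275 CPM in the aged libraries, and endothelial sums 73.7 and 69.1 against 92.2 and 85.0 CPM. The aged podocyte libraries were far above the other sums of these 4 classes, while young podocytes and young endothelial cells lay close together. Over the 4 libraries the mean was 185 ± 139 CPM in podocytes, 80.0 ± 10.5 in endothelial cells, 21.6 ± 14.7 in parietal cells and 16.1 ± 5.07 in mesangial cells (SD, n = 4). Endothelial cells were above mesangial cells by 2.56 (SE 0.34, adjusted p 6.54e-07) and above parietal cells by 1.94 (SE 0.59, adjusted p 0.011) on the log2 scale, in all 4 libraries. Podocytes exceeded mesangial cells by 3.50 (SE 0.33, adjusted p 1.85e-09) and parietal cells by 2.88 (SE 0.54, adjusted p 0.000164). Under the alternative settings these differences ran from 2.03 to 4.17 and from 2.65 to 3.21. Their size draws on the aged podocyte levels as well, so it is not independent of the choice of the genes. Mesangial and parietal cells did not differ past the threshold (−0.62, SE 0.76, adjusted p 0.591). Podocytes were above endothelial cells by 0.94 (SE 0.25, adjusted p 0.00154), but in 3 of 4 libraries. In the young libraries alone that difference was −0.13 (adjusted p 0.236), in the aged ones 1.74, and without aged replicate 1 it was 0.55 (adjusted p 0.0506). It thus rests on aged podocyte levels, which entered the choice of the genes, and is not independent of that choice. DESeq2 gave it an adjusted p of 0.0606.

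Rcan2, another calcineurin regulator of the family, had a different distribution. Among the 4 glomerular classes it was highest in mesangial cells, with 282 and 271 CPM in the young and 208 and 169 CPM in the aged mesangial sums. Parietal cells came next, with a mean of 107 ± 46.9 CPM (SD, n = 4), and mesangial cells were above them by 1.23 (SE 0.43, adjusted p 0.0301), a call lost without aged replicate 1 (adjusted p 0.07) and with DESeq2 (0.174). Podocytes, at 2.27 and 3.22 CPM in the young and 9.40 and 17.8 CPM in the aged libraries, were below mesangial cells by 4.81 (SE 0.34, adjusted p 9.63e-12). Endothelial cells, at 2.35 to 6.002 CPM, were below mesangial cells by 6.0 (SE 0.36, adjusted p 5.06e-13). Both differences held the same sign in all 4 libraries. Between podocytes and endothelial cells the sign differed between the ages: the pooled difference was 1.19 (SE 0.45, adjusted p 0.0199), with podocytes lower in both young libraries (−1.13, adjusted p 0.00241) and higher in both aged ones (2.40). The pooled call was lost without aged replicate 1 (0.88, adjusted p 0.132) and without aged replicate 2 (0.26, adjusted p 0.573). Like that of Rcan1, it rests on aged podocyte levels and is not independent of the choice of the genes.

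Rcan3, the third member of the family, was low everywhere, with class means of 6.38 to 11.03 CPM. Endothelial cells exceeded mesangial cells by 0.78 (SE 0.23, adjusted p 0.00608) in 4 of 4 libraries, or 0.73 (adjusted p 0.0508) without aged replicate 2. In the 6 pairs this was its only call.

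**Figure D1:**
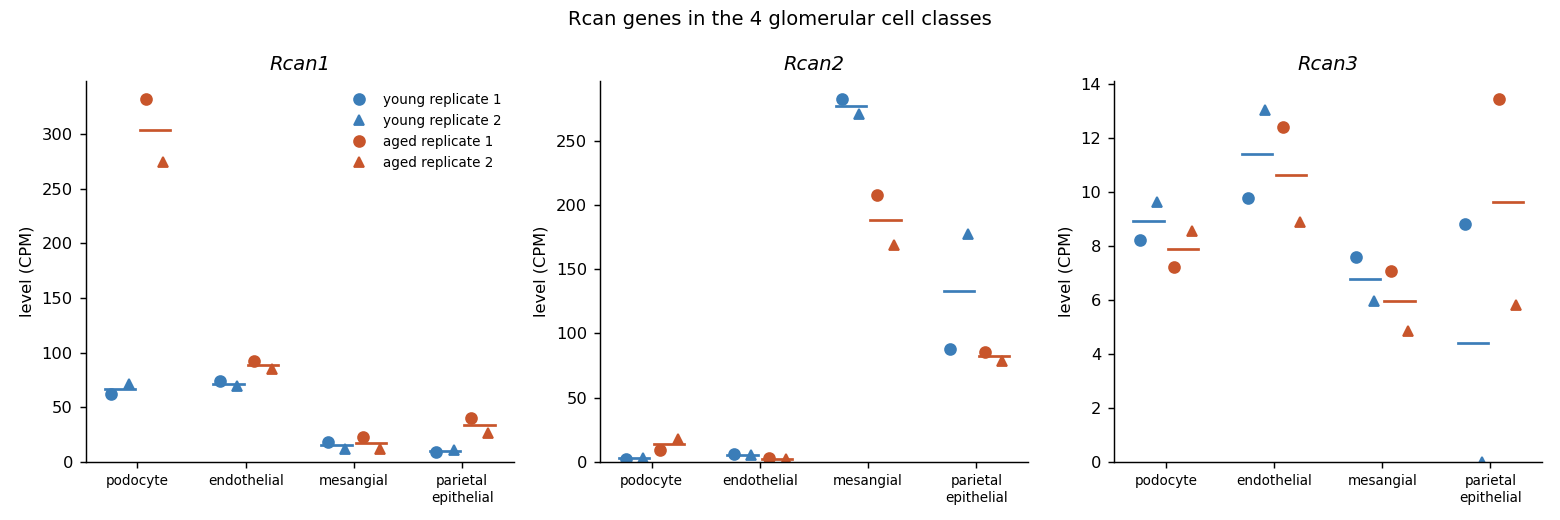
Level of Rcan1, Rcan2 and Rcan3 (CPM, linear axes from 0) in each of the 4 libraries and 4 glomerular classes. Circles are replicate 1, triangles replicate 2, blue young, orange aged, and bars are means of 2 libraries. The aged podocyte points of Rcan1, at 333 and 275 CPM, lie above all others, and Rcan2 is highest in mesangial cells.

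Among the calcineurin subunits, only the catalytic subunit Ppp3ca was spread unevenly in all 3 pairs of the well-filled classes. Endothelial cells held 272 and 319 CPM in the young and 306 and 316 CPM in the aged libraries, mesangial cells 171 to 205 CPM, and podocytes 76.4 to 103 CPM. The 3 ranges did not overlap. Podocytes were below endothelial cells by 1.82 (SE 0.11, adjusted p 3.05e-13) and below mesangial cells by 1.10 (SE 0.11, adjusted p 8.56e-09). Endothelial cells were above mesangial cells by 0.72 (SE 0.11, adjusted p 4.79e-06). Parietal cells, at 80.7 to 117 CPM, were below endothelial cells by 1.63 (SE 0.17, adjusted p 2.68e-08) and did not differ from podocytes past the threshold (−0.19, SE 0.18, adjusted p 0.479). Inside the endothelium every one of 10 clusters held between 207 and 299 CPM of Ppp3ca over the pooled libraries.

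The second catalytic subunit, Ppp3cb, was highest of the 4 classes in mesangial cells, at 60.9 to 78.8 CPM. Podocytes, at 45.1 to 50.8 CPM, were below them by 0.45 (SE 0.11, adjusted p 0.00114) and endothelial cells, at 48.4 to 53.5 CPM, by 0.43 (SE 0.11, adjusted p 0.00199). Podocytes and endothelial cells differed by −0.024 (SE 0.10, adjusted p 0.877). The mesangial excess over parietal cells, 0.73 (SE 0.23, adjusted p 0.0159), was lost without aged replicate 1 (adjusted p 0.106) and without aged replicate 2 (0.119). The regulatory subunit Ppp3r1, which both catalytic subunits need, passed the threshold in 0 of 6 pairs, with differences from −0.20 to 0.27. By unadjusted p, 0 of those 6 pairs were under 0.05, and DESeq2 called 0 of 6.

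The NFAT factors were distributed more sharply. Among the 4 classes Nfatc1 was highest in endothelial cells, at 34.5 and 32.3 CPM in the young and 45.1 and 37.7 CPM in the aged libraries. Podocytes held 1.70 to 7.72 CPM, 2.94 lower (SE 0.20, adjusted p 4.44e-12), and mesangial cells held 13.5 to 19.2 CPM, 1.33 below endothelial cells (SE 0.20, adjusted p 4.47e-06). Both differences had the same sign in 4 of 4 libraries. Parietal cells, at 17.6 to 23.3 CPM from only 16 UMIs, were above podocytes by 2.03 (SE 0.54, adjusted p 0.00446, or 0.0601 without aged replicate 2).

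Nfatc2 and Nfatc4 were not read at all in podocytes, with 0 UMIs among 21076700 in 3929 cells. The limit that a count of 0 allows, 3 UMIs over the class, is 0.142 CPM, which covers counting error only. Nfatc2 gave 35 UMIs in endothelial cells, of which 14 fell in cluster 10, a cluster led by Tspan8, Thbs2 and Fbln2, and 1 UMI in mesangial cells. It gave 11 UMIs in 118 parietal cells, at 17.6 and 0 CPM in the young and 8.97 and 20.4 CPM in the aged libraries, 8 of them in 1 cluster of 35 cells. Pooled over libraries its level in parietal cells was 16.8 CPM, 118-fold the limit for podocytes (62.9-fold without aged replicate 2, 71.3-fold without young replicate 1). In endothelial cells it was 5.81-fold that limit, or 3.95-fold without aged replicate 1. These folds leave out the counting error of the parietal and endothelial counts, so they are no lower bounds. The parietal excess over endothelial cells was 3.84 (SE 0.72, adjusted p 0.000197) with parietal cells higher in 3 of 4 libraries.

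Among the 4 glomerular classes most Nfatc4 UMIs were read in mesangial cells, with 62 there against 13 in the much larger endothelial sums. Parietal cells held a mean of 6.10 CPM from only 3 UMIs, beside 8.96 in mesangial cells. Smooth muscle and renin cells, which were not tested, held 9.53 and 28.7 CPM in the young and 9.16 and 0 CPM in the aged libraries. These last values come from 2, 6, 2 and 0 UMIs and are not scaled between classes. Mesangial sums held 21.3 and 5.97 CPM in the young and 3.70 and 4.87 CPM in the aged libraries. Endothelial cells were below mesangial cells by 4.21 (SE 0.54, adjusted p 8.91e-07) in 4 of 4 libraries. The pooled mesangial level was 44.98-fold the limit for podocytes, or 18.4-fold without young replicate 1, with the counting error of the mesangial count left out. Nfatc3 was the most evenly spread of the 4 factors among podocytes, endothelial and mesangial cells, at 17.6 to 30.3, 21.3 to 34.7 and 18.9 to 50.1 CPM. Podocytes were below mesangial cells by 0.58 (SE 0.16, adjusted p 0.00249) in 4 of 4 libraries. Parietal cells were below mesangial cells by 1.46 (SE 0.43, adjusted p 0.0104) and below endothelial cells by 1.17 (SE 0.43, adjusted p 0.0355). Both of these rest on 8 parietal UMIs and were lost without aged replicate 2 (adjusted p 0.198 and 0.314).

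**Figure D2:**
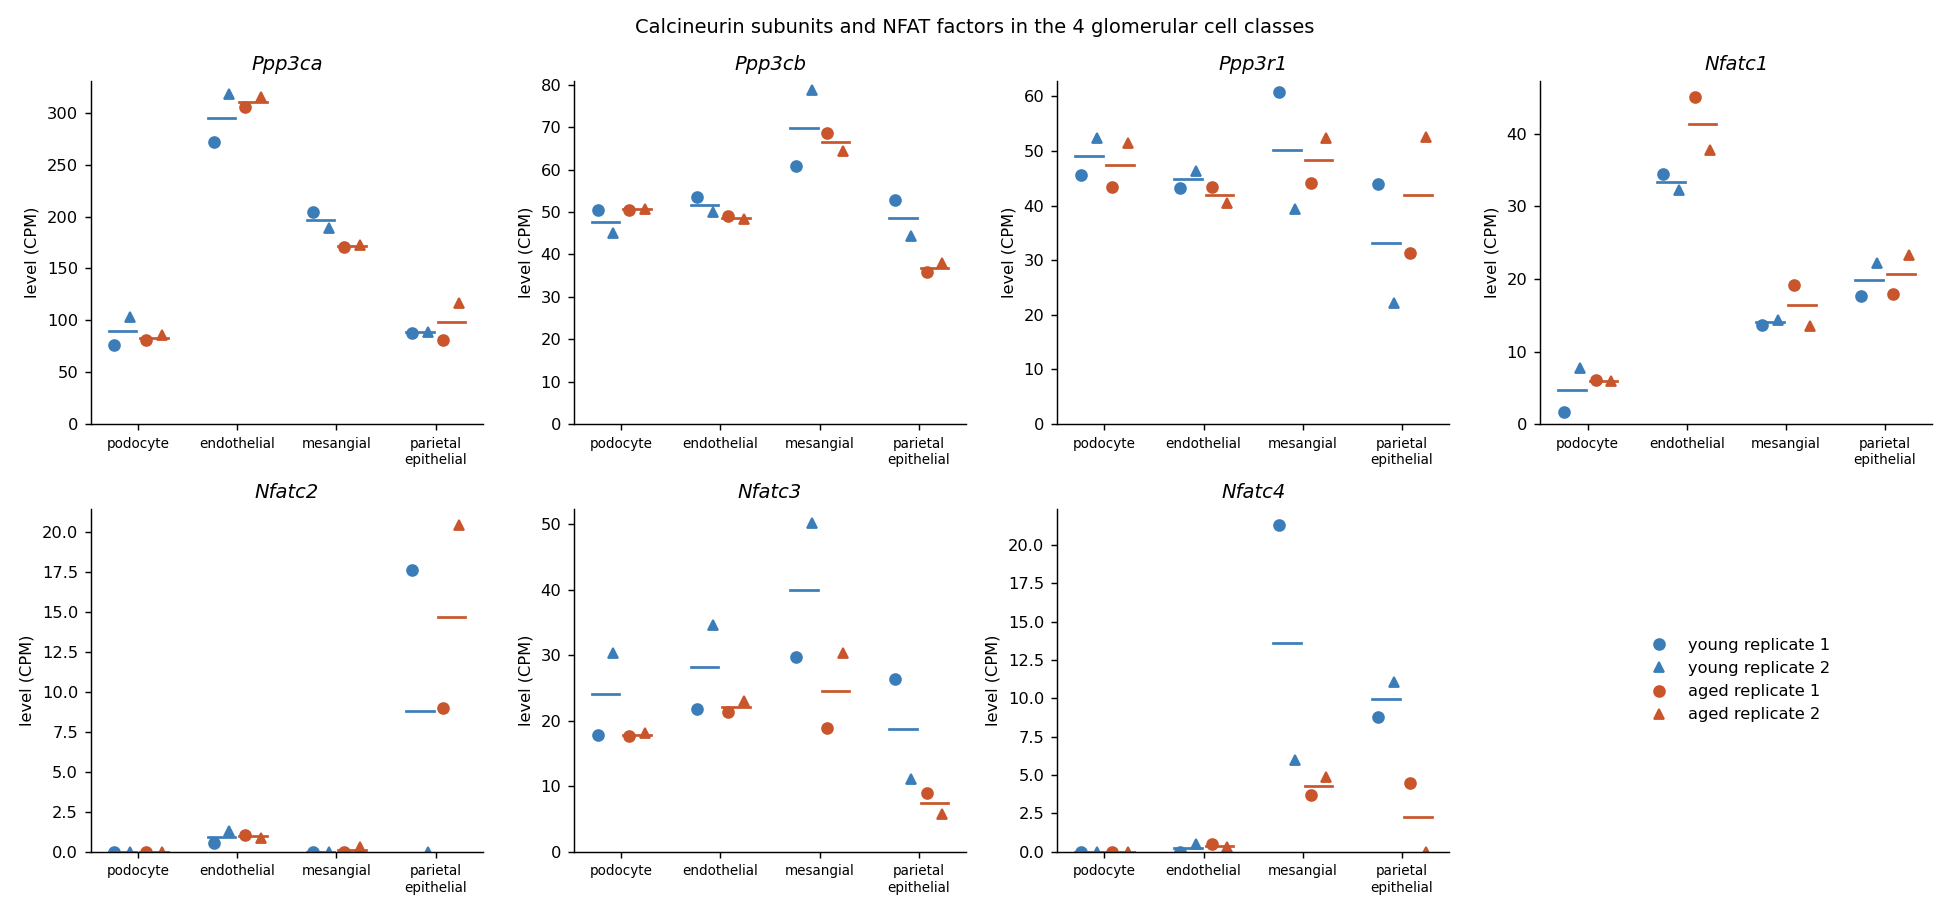
Level (CPM, linear axes from 0) of the 3 calcineurin subunits and 4 NFAT factors in each library and glomerular class, with bars at the mean of 2 libraries. Ppp3ca and Nfatc1 are highest in endothelial cells and Nfatc4 in 1 young mesangial library (21.3 CPM), while Nfatc2 and Nfatc4 are at 0 in every podocyte sum.

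Tests were limited to the glomerular classes. For some of the other classes, exact 95% Poisson intervals of counting error are given instead. Smooth muscle and renin cells, 37 to 66 a library, held Rcan2 at 314 (243 to 400), 326 (253 to 413), 270.1 (206 to 348) and 386 (296 to 495) CPM in young replicates 1 and 2 and aged replicates 1 and 2. These values, not scaled between classes, overlap across age. B cells, which depend on NFAT signals after antigen contact, held Nfatc1 at 152 and 168 CPM in the young and 114 and 108 CPM in the aged libraries from 10 to 21 UMIs each, and T and NK cells 98.4 to 152 CPM. Nfatc3 was read at 92.8 to 152 CPM in B cells and 90.2 to 142 CPM in T and NK cells. Rcan1 was nearly missing from lymphocytes, with a UMI in 1 of 325 B cells (0.308%, exact interval 0.00779 to 1.70%, median depth 1380 UMIs) and in 1 of 194 T and NK cells. In podocytes, 1260 of 3929 cells had one (32.1%, median depth 4971 UMIs). Tubule cells carried more, with Rcan1 in 66 of 132 cells and 335 UMIs in 76 cells of aged replicate 1 (429 CPM, interval 384 to 478). Macrophages reached 20 cells in the aged libraries alone, with 552 and 492 cells. They held Ppp3ca at 73.8 and 72.4 CPM, Rcan1 at 45.8 (38.9 to 53.7) and 15.5 (12.2 to 19.5) CPM, Nfatc1 at 18.1 and 21.5 CPM, and Rcan2 at 0 and 2 UMIs.

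The second question was how these genes differ between young and aged glomeruli, fitted in each class with age as the only term and with scaling factors of that class, so that CPM differ slightly from those above. Of the 10 genes, enough counts were found for 8 in podocytes, for 9 in endothelial cells, for 9 in mesangial cells and for 2 in parietal cells. The libraries of the ages did not overlap for 3, 5, 3 and 1 of them, where 46.4%, 48.8%, 52.1% and 47.6% of all genes did not overlap. The age contrast chose the set, so nothing is read from these counts. The median log2 difference over the genes tested was 0.016 for podocytes, −0.095 for endothelial cells, −0.21 for mesangial cells and −0.48 for parietal cells, beside medians over all genes between −0.0063 and 0.0076.

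Rcan1 in podocytes was 57.9 and 67.3 CPM in the young libraries (436 and 220 UMIs) and 312 and 259 CPM in the aged ones (1699 and 1217 UMIs). The lowest aged library was well above the highest young one. The means were 62.6 ± 6.61 and 285 ± 36.8 CPM (SD, n = 2), a 4.60-fold difference (log2 2.20, SE 0.14). Without young replicate 2, the library with many unassigned cells, it was 2.30, and over the 4 omissions of a library it ran from 2.06 to 2.33. Because depth per cell differed between libraries, each podocyte was also thinned to 1000 UMIs, which left out 2, 16, 1 and 3 cells. The share of podocytes with an Rcan1 UMI was then 5.12% (exact interval 4.13 to 6.26%) and 6.56% (4.64 to 8.96%) in the young libraries. It was 17.3% (14.9 to 19.8%) and 16.3% (13.5 to 19.3%) in the aged ones. These intervals are over the cells of 1 library, so they cover counting error only and not the spread between libraries. Before thinning the shares were 18.3%, 24.6%, 48.5% and 50.9%. In endothelial cells thinned the same way, the shares were 5.46% and 5.74% against 6.56% and 6.13%.

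The podocytes fell in 2 clusters, in which Rcan1 was read separately. Cluster 1, with Gas1, Nupr1, Arhgap28, Ildr2 and Col4a3 among its leading genes, held 71.1 and 81.0 CPM in the young and 363 and 286 CPM in the aged libraries, a difference of 2.15 (SE 0.13). Cluster 5, with Nphs1, Dpp4, Clic3 and Cdkn1c among its leading genes, held 39.3 and 45.0 against 47.3 and 42.4 CPM, a difference of 0.14 (SE 0.25). Its young and aged libraries overlapped. Cluster 1 held 59.2% of podocytes and 93.2% of their Rcan1 UMIs. It made up 46.8% and 59.7% of the podocytes of the young libraries and 71.4% and 74.0% of those of the aged ones, so that its share moved with age as well. Its cells were deeper, with medians of 4943, 6625, 6494 and 8577 UMIs against 3428, 4533, 3083 and 3760 in cluster 5. The difference between the clusters in age effect was not tested, and the clusters were made from the expression of the same cells, without the 10 genes and the pathway lists.

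Markers of other cell types in the podocyte sums were low. The 8 tubule markers, from the class with the most Rcan1, summed to 1.59 to 18.2 CPM in the young and 1.23 to 3.83 CPM in the aged libraries, or 0.229% of the level in tubule cells at most, with Lrp2, Slc34a1, Aqp2 and Kap at 0 in young replicate 2 and Lrp2, Slc34a1, Slc12a1 and Kap at 0 in aged replicate 1. The 10 dissociation and immediate early genes, which respond to handling, summed to 35257 and 36302 CPM in young and 32948 and 38135 CPM in aged podocytes, overlapping between the ages. Their part in the Rcan1 values was not tested.

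**Figure D3:**
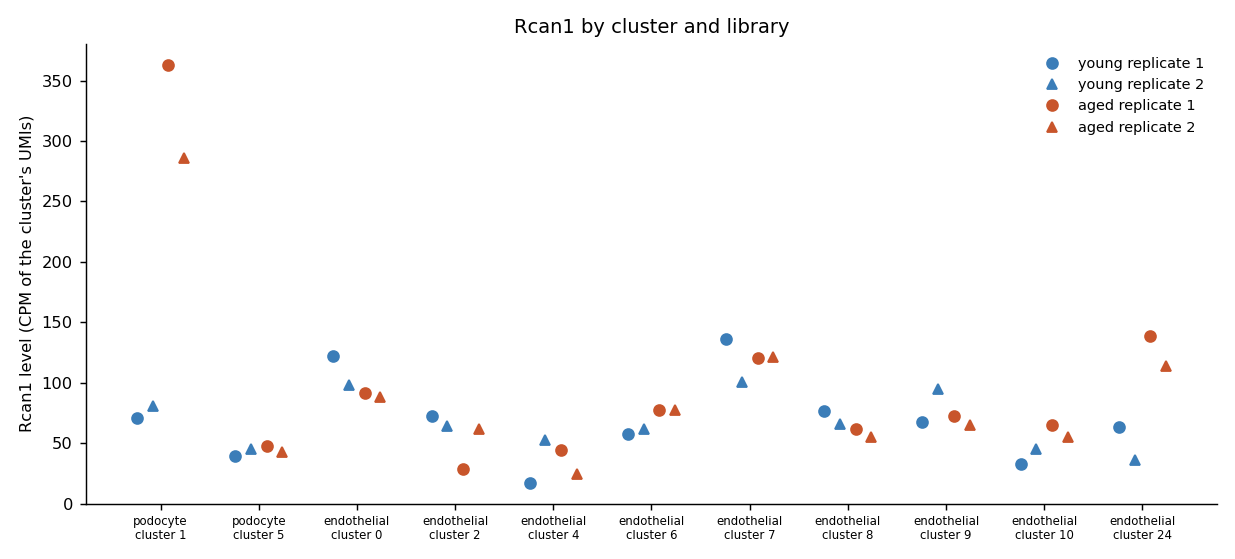
Rcan1 level (CPM of the UMIs of the cluster, linear axis from 0) in each library for the podocyte and endothelial clusters with at least 20 cells in every library. Circles are replicate 1, triangles replicate 2, blue young, orange aged. Cluster 1 of the podocytes stands out in aged libraries, at 363 and 286 CPM, and cluster 5 stays between 39.3 and 47.3 CPM.

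Endothelial Rcan1 was 68.3 and 63.5 CPM in the young and 84.0 and 77.0 CPM in the aged libraries, a non-overlapping difference of 0.29 (SE 0.14), where 48.8% of all endothelial genes did not overlap either. By cluster it had no single direction: the difference was 1.43 (SE 0.46) in cluster 24, from 7, 4, 49 and 13 UMIs, 0.77 (SE 0.26) in cluster 10 and 0.47 (SE 0.22) in cluster 6, but −0.41 (SE 0.24) in cluster 2 and −0.27 (SE 0.21) in cluster 0. Cluster 7, led by the adhesion and cytokine genes Sele, Selp and Il6, was among the highest at 136, 101, 120.4 and 121 CPM in young replicates 1 and 2 and aged replicates 1 and 2, and cluster 4, led by Esm1 and Igfbp3, was low at 17.2, 52.6, 44.0 and 24.4 CPM. Cluster shares moved with age too: cluster 7 held 4.06% and 7.06% of young and 11.8% and 14.0% of aged endothelial cells, and cluster 2 42.8% and 37.0% against 5.74% and 10.8%. Their part in the endothelial Rcan1 difference was not tested. Mesangial Rcan1 overlapped between the ages, at 17.2 and 11.3 against 20.7 and 11.2 CPM. In parietal cells it gave 1 UMI in each young and 9 in each aged library, too few to pass the filter.

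Rcan2 in podocytes was 2.13 and 3.06 CPM in the young libraries and 8.80 and 16.8 CPM in the aged ones, from 16, 10, 48 and 79 UMIs. The age groups did not overlap, and the aged libraries also lay well apart from each other. The log2 difference was 2.37 (SE 0.34), and leaving out 1 library in turn gave 1.84 to 2.78. In cluster 1 it was 2.98 and 3.22 against 9.43 and 17.1 CPM (2.13, SE 0.36), and cluster 5 held only 19 UMIs in all. Markers of the Rcan2-rich classes moved in both directions in these sums: the 7 mesangial markers summed to 25.1 and 31.4 CPM in young and 20.0 and 17.5 CPM in aged podocytes, with Gata3 at 0 in both aged libraries, and the 6 smooth muscle and renin markers to 17.8 and 20.6 against 69.8 and 47.7 CPM. The last are 0.223% at most of the level in smooth muscle and renin cells, with Cnn1 at 0 in all 4 libraries. The 5 parietal markers summed to 80.7 and 111 against 65.2 and 62.5 CPM with none at 0. Their part in the Rcan2 values was not tested.

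In the other classes Rcan2 was lower in aged libraries. Endothelial sums held 5.56 and 4.79 against 2.35 and 2.13 CPM (−1.22, SE 0.31), from 35, 20, 36 and 33 UMIs. Of these UMIs, 75.8% lay in cluster 10, where the difference was −1.13 (SE 0.35), and that cluster held 9.15% of the endothelial cells. Leaving out 1 library in turn gave −1.30 to −1.09. Mesangial sums held 266 and 257 against 194 and 158 CPM (−0.57, SE 0.16). Here the 2 ages were largely read from different clusters, cluster 15 with 95.7% and 92.4% of the young cells and cluster 12 with 94.4% and 95.0% of the aged ones. Within cluster 15 the difference was −0.69 (SE 0.28), with 33 and 22 aged cells. Parietal sums gave 10 and 16 UMIs against 19 and 27 (−0.90, SE 0.41), or −0.27 to −1.32 with 1 library left out.

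The calcineurin subunits differed with age by −0.21 to 0.072 in the 3 well-filled classes. In podocytes the differences were −0.089 (SE 0.15) for Ppp3ca, 0.072 (SE 0.15) for Ppp3cb and −0.040 (SE 0.15) for Ppp3r1, from 140 to 538 UMIs a library. In endothelial cells they were 0.053 (SE 0.15), −0.11 (SE 0.14) and −0.11 (SE 0.14), and in mesangial cells −0.21 (SE 0.16), −0.068 (SE 0.19) and −0.10 (SE 0.23). Young and aged libraries overlapped in 5 of these 9 cases, where 46.4 to 52.1% of all genes in these classes did not overlap. Rcan3 overlapped between the ages in podocytes, endothelial and mesangial cells, with differences of −0.15 (SE 0.27), −0.095 (SE 0.24) and −0.25 (SE 0.47).

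Of the NFAT factors, Nfatc1 in endothelial cells was 31.9 and 29.7 CPM in the young and 41.1 and 34.2 CPM in the aged libraries (0.28, SE 0.16), the aged values just above the young. In podocytes its 12 and 24 against 31 and 26 UMIs overlapped as CPM, and the difference of 0.64 (SE 0.43) ran from −0.38 without young replicate 1 to 1.80 without young replicate 2. Nfatc3 was lower in aged libraries by 0.35 (SE 0.21) in podocytes, 0.34 (SE 0.19) in endothelial and 0.65 (SE 0.30) in mesangial cells, overlapping in each. In all 3 classes young replicate 2 was the highest library, and without it the endothelial difference was 0.00036. Nfatc4 in mesangial cells was 20.1 and 5.66 CPM in the young and 3.45 and 4.57 CPM in the aged libraries, a difference of −1.77 (SE 0.51) that was −0.49 without young replicate 1. Of its 62 UMIs, 37 came from cluster 15, the mostly young cluster. Nfatc2 passed the filter in endothelial cells alone, with a difference of 0.18 (SE 0.60) from 35 UMIs.

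**Figure D4:**
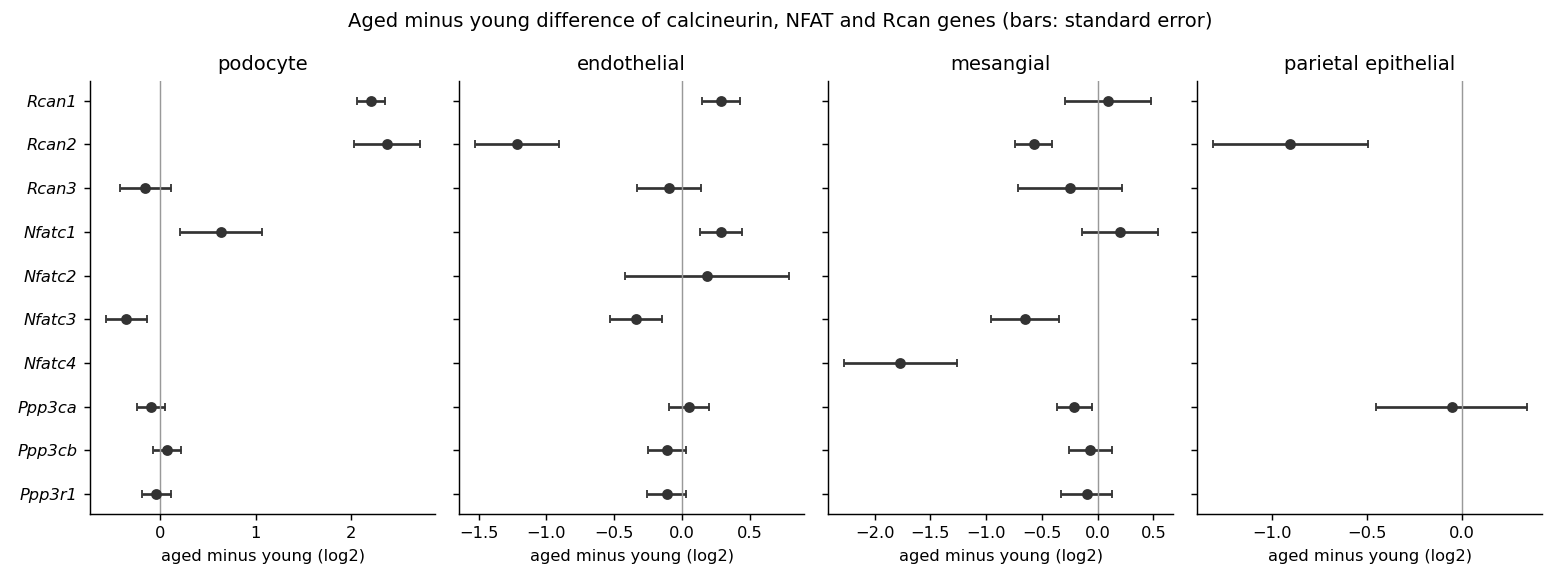
Aged minus young difference (log2) of each gene that passed the count filter in each glomerular class, with bars of 1 standard error and 2 libraries a group. The axes differ between panels. Rcan1 and Rcan2 stand at 2.20 and 2.37 in podocytes, and Rcan2 lies below 0 in the other 3 classes.

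The other genes of the pathway, 64 in 6 lists that hold none of the 10, were tested with age in the same fits. Over all genes, 6.72% passed in podocytes (4.29% higher with age, 2.43% lower), 5.79% in endothelial cells (3.93% higher, 1.86% lower), 5.78% in mesangial cells (3.86% higher, 1.91% lower) and 2.65% in parietal cells (1.48% higher, 1.17% lower). Of the 64, 42 had enough counts in podocytes, of which 3 passed, each of them higher with age, in endothelial cells 6 of 50 rose and 2 fell, in mesangial cells 4 of 47 rose, and in parietal cells 2 of 17 rose. Upstream of calcineurin, 11 of the 15 genes of calcium entry and calmodulin were tested in podocytes, where 0 passed by edgeR, 1 had an unadjusted p under 0.05 and DESeq2 called 0 of 12, and 12 in endothelial cells, where Trpc1, a calcium-permeable channel, rose from 6.99 and 8.87 to 15.4 and 14.5 CPM (0.94, SE 0.21, adjusted p 0.0108). The medians of this list were 0.098 and −0.040, beside 0.0018 and −0.0063 over all genes. Among inhibitors, anchors and immunophilins, Chp1, a calcineurin-like calcium-binding protein known to inhibit the phosphatase, rose in podocytes from 49.97 and 54.4 to 69.5 and 75.7 CPM (0.48, SE 0.14, adjusted p 0.03). Among the NFAT kinases and export genes Csnk1e, a casein kinase, rose in podocytes by 0.53 (SE 0.16, adjusted p 0.0301). Both podocyte calls were lost without young replicate 1 (adjusted p 0.0863 and 0.0757), in the fit lacking aged replicate 1 (0.285 and 0.304), in that lacking aged replicate 2 (0.571 and 0.415) and with DESeq2 (0.315 and 0.435). In podocyte cluster 5 alone the difference of Csnk1e was −0.34 (adjusted p 0.789).

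Of the other calcineurin substrates, 12 were tested in endothelial cells and 2 passed. Synpo, the podocyte actin protein that calcineurin targets, rose there from 20.6 and 28.3 to 48.8 and 37.0 CPM (0.83, SE 0.18, adjusted p 0.00852). The 8 podocyte markers in the endothelial sums held 904 to 1249 CPM in the young and 764 to 779 CPM in the aged libraries, with none at 0. The part of these markers in the Synpo values was not tested. Dnm1, a dynamin, fell by 2.16 (SE 0.43, adjusted p 0.00405) to under 1 CPM. Trpc1, Synpo and Dnm1 each lost the call without young replicate 1 (adjusted p 0.238, 0.28 and 0.168) and without young replicate 2 (0.123, 0.119 and 0.124), and Synpo also without aged replicate 1 (0.0684), at the high clustering resolution (0.114) and without doublet removal (0.126). With DESeq2, Trpc1 (0.0884) and Dnm1 (0.065) were not called. In podocytes 0 of 10 substrates passed by edgeR, 3 had an unadjusted p under 0.05, DESeq2 called 0 of 11, and the list median was 0.16. The remaining family genes Ppp3cc, Ppp3r2 and Nfat5 gave 1 or 2 tested genes a class and 0 calls by edgeR or DESeq2, with 0 at an unadjusted p under 0.05.

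Of these 6 lists, the genes described as NFAT targets in other cells gave the most calls over the classes together, but not in podocytes alone. The lists were chosen with earlier results of these data known, so these calls and their p-values are not independent of that choice. In podocytes 1 of 6 tested rose, F3, the coagulation starter tissue factor, from 131 and 139 to 212 and 201 CPM (0.61, SE 0.13, adjusted p 0.00159, with adjusted p 0.214 and 0.0987 without aged replicate 1 and 2). In cluster 5 alone, F3 differed by 0.12. In mesangial cells 4 of 9 rose. The prostaglandin synthase Ptgs2 went from 14.4 and 17.0 to 144 and 138 CPM (3.19, SE 0.22, adjusted p 6.99e-06) and the adhesion molecule Vcam1 from 238 and 270.3 to 803 and 780.2 CPM (1.64, SE 0.17, adjusted p 0.000103). The protease Ctsk rose by 1.57 (SE 0.32, adjusted p 0.0119, or 0.0989 without young replicate 1 and 0.0822 with DESeq2) and the cytokine Il6 by 1.01 (SE 0.19, adjusted p 0.00935, or 0.109 without young replicate 2). In those mesangial sums Nfatc4 and Rcan2 were lower in aged libraries and Rcan1 overlapped, and the sums came largely from cluster 15 in the young and cluster 12, led by Cxcl13 and Ccl2, in the aged libraries. The 6 macrophage markers in them summed to 480 to 550.1 CPM in the young and 313 to 470 CPM in the aged libraries. C1qa, C1qb, C1qc and Adgre1 were at 0 in both young libraries, and Csf1r also in young replicate 1, where Mrc1 gave the whole sum. In both aged libraries only Adgre1 was at 0, so that C1qa, C1qb and C1qc were read there alone. The 6 smooth muscle and renin markers summed to 56.9 to 94.2 against 208.5 to 213.7 CPM, 0.685% of their own class's level at most, with 2 at 0 in each young and 1 in each aged library. The 5 parietal markers summed to 4.42 to 7.11 against 18.8 to 24.1 CPM, with 3 at 0 in every library. Their part in these values was not tested.

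In endothelial cells 4 of 10 targets rose and 1 fell. Il6 went from 27.8 and 24.7 to 142 and 174 CPM (2.59, SE 0.16, adjusted p 2.41e-08) and Vcam1 from 11.6 and 17.5 to 50.9 and 80.1 CPM (2.21, SE 0.22, adjusted p 7e-06, or 0.0719 without young replicate 1). Ptgs2 rose by 1.24 (SE 0.24, adjusted p 0.00375), and the urokinase receptor Plaur, named beyond the 4 smallest p, by 0.72 (SE 0.19, adjusted p 0.0301). Egr3, an early growth response factor, fell by 0.83 (SE 0.15, adjusted p 0.00184). Ptgs2, Plaur and Egr3 lost the call without young replicate 1 (adjusted p 0.2, 0.125 and 0.0873) and without young replicate 2 (0.19, 0.401 and 0.16), and Plaur also without aged replicate 1 (0.468) and without doublet removal (0.0512). In these endothelial sums the 7 mesangial markers summed to 33.2 to 59.4 CPM in the young and 99.9 to 112 CPM in the aged libraries, 1.08% of the mesangial level at most, with none at 0. The 6 macrophage markers went from 0.159 to 3.63 up to 11.6 to 14.7 CPM, 0.0946% of the macrophage level at most, with none at 0 in the aged libraries. Their part in these values was not tested. In parietal cells 2 of 3 rose, F3 from 99.4 and 150 to 453 and 499 CPM (1.97, SE 0.33, adjusted p 0.00649) and Plaur by 2.82 (SE 0.69, adjusted p 0.0478). Plaur rested on 2 and 1 young UMIs against 38 and 32 aged ones, and was 1.81 (adjusted p 0.158) with mixed single cells kept and 2.45 (0.0532) at the high clustering resolution. The 6 smooth muscle and renin markers in the parietal sums went from 1776 and 3092 to 5183 and 7373 CPM, 23.6% of their own class's level at most, with Cnn1, Ren1 and Akr1b7 at 0 in all 4 libraries. Myh11 was also at 0 in both young libraries and Acta2 in young replicate 1, where Tagln gave the whole sum. Tagln was also among the leading genes of parietal clusters 29 and 30. The 10 dissociation and immediate early genes summed there to 13147 and 12459 CPM in the young and 5451 and 8051 CPM in the aged libraries. Their part in the parietal values was not tested. The median of the tested targets was 0.053 for podocytes, 0.64 for endothelial cells, 1.57 for mesangial cells and 1.97 for parietal cells.

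Genes outside the pathway followed the levels of Rcan1. Over the 16 class and library sums, the 5 named genes whose log2 CPM followed that of Rcan1 most closely among 8059 genes were Dctn3 (Pearson r 0.93), Cltb (0.93), Tdrp (0.92), Irf2bpl (0.91) and Tsc22d3 (0.91), with Spearman rho of 0.91, 0.96, 0.88, 0.86 and 0.85. Dctn3 is a dynactin subunit, Cltb a clathrin light chain and Tsc22d3 a glucocorticoid-induced regulator. The sums of 1 library share its depth and preparation, and the values describe likeness of level across classes as well as ages.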

How the data were processed

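Droplet 3′ libraries of glomerular cells (young, n = 2; aged, n = 2) were used as deposited: raw UMI counts per gene and barcode, per the file headers made with Cell Ranger 6.0.1. The labels' extract protocol names 3.1.0, and the submitters' processing notes name GRCm38 and Partek; the release behind these counts could not be decided. Of 52636 gene IDs, 52489 (99.7%) were found in GENCODE vM21.

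Of 33323 barcodes, those with at least 500 genes and at most 20% mitochondrial UMIs were kept (29876). The automatic Scrublet threshold marked 134 (0.449%), so the 1876 highest scores were removed instead, at 0.8% per 1000 barcodes. Counts scaled to 10000 a cell were clustered in Python 3.11.15 with scanpy 1.11.5 and leidenalg 0.10.2 (1984 variable genes without the 10 genes and the lists, 30 components, 15 neighbours, resolution 1), with mixed clusters split again at resolution 0.5. Of 36 clusters, 26 were named from marker levels (at least 0.35 of the best cluster, at least 3 markers detected in 10% of cells, unrelated class under 0.2, or 0.25 in a single cell). These limits were picked with the data in view, and the names are rebuilt ones.

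UMIs were summed per class and library and tested with edgeR 4.0.16 in R 4.3.3 (quasi-likelihood, TMM, default expression filter, Benjamini-Hochberg adjusted p under 0.05 called), with age alone within classes and with library as a block between classes. DESeq2 1.42.0 was an alternative, beside other filters, cell selections, resolutions and omitted libraries. The SE is the log2 difference divided by the square root of F. On simulated counts, the age fits and the podocyte against endothelial fit recovered known changes. Those counts had 1 fixed spread for all genes, no library effect, and changes in well-counted genes only. They therefore cannot speak for genes with few UMIs or for the real spread between libraries. Libraries of 1 group differed beyond counting noise (chi-square per degree of freedom 12.7 and 22.4). Precision is limited by 2 libraries a group and, in parietal cells, by few UMIs.

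All 10 genes are named in every class; of the other lists, called genes up to 4 a list and class by smallest p, and the 5 genes most like Rcan1. The members and lists were chosen with earlier results of these data known. Replicate numbers are names only and pair no libraries.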

Additional observations from a re-analysis of the deposited data

Results flagged for a closer look

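Rcan2 moved with age in opposite directions in podocytes and in the other glomerular classes. Both aged podocyte libraries were above both young ones (2.37 on the log2 scale), whereas both aged libraries were below both young ones in endothelial (−1.22), mesangial (−0.57) and parietal cells (−0.90). The podocyte value exceeded the endothelial one by 3.59, the mesangial one by 2.94 and the parietal one by 3.27. Ppp3cb had opposite signs in podocytes (0.072) and endothelial cells (−0.11), apart by 0.18, but each value was smaller than its standard error. Of the immediate early genes, Atf3 was higher with age in podocytes (0.75) and lower in mesangial cells (−0.81), apart by 1.56. In podocyte cluster 5 alone, a fit chosen after seeing the data, Atf3 was lower with age (−1.86). Dusp1 was lower in podocytes (−0.82) and higher in endothelial cells (1.17), apart by −1.99. In each of these cases every library of one class moved one way and every library of the other class the opposite way, and the difference between the classes was not tested. The genes were picked with age in view, and the age groups did not overlap for 46.4 to 52.1% of all genes tested in a class.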

How the results depend on the processing

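Counts past the threshold with age are given here for the list genes other than the 10, with the dissociation and immediate early genes among them; with all settings as described podocytes had 7, endothelial cells 9, mesangial cells 7 and parietal cells 7. In podocytes the count was 3 with DESeq2, 3 at the high clustering resolution and 11 in cluster 5 alone, an alternative chosen after seeing the data. In endothelial cells it was 1 with no filter on low counts, and in mesangial cells 12 with no filter and 14 with mixed cells kept. Leaving out 1 library in turn gave 1 to 11 in podocytes (11 without young replicate 2, 2 and 1 without aged replicates 1 and 2), 2 to 9 in endothelial cells (2 without either young library) and 4 to 18 in mesangial cells (4 without either young library, 12 and 18 without aged replicates 1 and 2); where 1 library is left in a group it is assumed to vary like the other group. The replicate block gave podocytes 7, endothelial cells 13, mesangial cells 9 and parietal cells 7, but the numbers are names and same-numbered libraries deviated together with correlations across genes of 0.0076 to 0.080. Between classes, the count of the 10 genes fell to 2 between endothelial and parietal cells without the library block. It was 3 for podocytes against endothelial and against parietal cells and 2 for mesangial against parietal cells in young libraries alone, and 3 for the last with DESeq2. Without 1 library it ran from 3 to 6 between podocytes and endothelial cells (3 without aged replicate 1) and from 3 to 5 between mesangial and parietal cells (3 without either aged library). Signs turned in young libraries alone for podocytes against endothelial cells (Rcan1 −0.13, Rcan2 −1.13) and with age in cluster 5 alone (Csnk1e −0.34, Atf3 −1.86). The cause was not tested. For the 36 called class differences of the 10 genes, 420 of 458 values under alternatives kept direction and side of the threshold. For the 30 called age differences of other genes, 296 of 372 did. Differences not called with all settings as described were not followed in these counts. Of 346 age values of the 10 genes, 314 moved by less than the spread between libraries. Depth limits Nfatc2, Nfatc4 and every parietal value.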

Other observations

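The dissociation and immediate early genes, fast transcripts that respond to handling as well as to signals, passed the test with age in each class but in different members. In podocytes 4 of 10 passed: Atf3, a stress-induced factor, rose by 0.75 (SE 0.15, adjusted p 0.000966) and the heat shock genes Hspa1a and Hspa1b by 1.05 (SE 0.20, adjusted p 0.000351) and 1.03 (SE 0.19, adjusted p 0.000312), while the phosphatase gene Dusp1 fell by 0.82 (SE 0.14, adjusted p 7.68e-05) in edgeR's quasi-likelihood test. Each of the 4 calls was lost without at least 1 library: Atf3 (adjusted p 0.122), Hspa1a (0.644) and Hspa1b (0.622) were lost without aged replicate 2, Atf3 (0.052) and Dusp1 (0.0861) without aged replicate 1, and Hspa1b also without young replicate 1 (0.0731). Without aged replicate 2 the rise of Hspa1a and Hspa1b was 0.43 and 0.42. In podocyte cluster 5 alone Atf3 was lower with age, by −1.86 (adjusted p 3.38e-21). That fit was chosen after seeing the data, on clusters made from the same cells, so its p-value is not that of a planned test. DESeq2 called neither heat shock gene (0.629 and 0.72). In endothelial cells 1 of 10 passed, Dusp1, which rose by 1.17 (SE 0.18, adjusted p 0.00047, or 0.0579 without young replicate 2).

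In mesangial cells 3 of 10 passed and each was lower with age. Egr1, an immediate early zinc finger factor, fell by 1.31 (SE 0.20, adjusted p 0.00229), and Jun and Atf3 fell by 0.93 and 0.81 (adjusted p 0.0269 and 0.0196). The last calls were lost without young replicate 1 (0.113 and 0.138) and without young replicate 2 (0.23 and 0.23). In parietal cells 5 of 10 passed, all lower with age. Egr1 fell by 1.81 (SE 0.23, adjusted p 0.00174), Fos by 1.35 and Jun by 1.32 (adjusted p 0.00261 for each), Fosb by 1.01 (adjusted p 0.017), and Junb, named beyond the 4 smallest p, by 0.88 (adjusted p 0.0414, or 0.0979 without young replicate 2 and 0.134 without aged replicate 1). With mixed single cells kept, the calls of Egr1 (−1.15, adjusted p 0.0721), Fos (−1.13, 0.0646) and Fosb (−0.79, 0.144) were lost, and DESeq2 did not call Junb (0.15). The smooth muscle and renin markers in the parietal sums were higher in the aged libraries (5183 and 7373 against 1776 and 3092 CPM). In young replicate 1 only Tagln was read among them, a gene that is also among the leading genes of parietal clusters 29 and 30. The part of these markers in the values was not tested.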
